A study of Mus musculus with 6 samples.

Results

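Rgs5, Notch3, Acta2, Tagln, Pdgfrb, Vtn, Myl9 and Higd1b are genes by which pericytes and vascular smooth muscle cells, together called mural cells, are recognized in the mouse brain. The 8 genes were chosen by name from the 16703 genes of the table. No cut on measured values was used, but earlier results of these data were known when they were chosen. All 8 were measured. The libraries came from the hippocampi of 3 aged (20-month-old) and 3 young (3-month-old) male C57BL/6 mice, 1 library per mouse, made from poly(A) RNA with a directional kit. The labels name no transgene or treatment, and the methods state that the animals were picked by an earlier qPCR assay without naming the criterion. The paper reports a first qRT-PCR check of Neat1, C4b, Trem2 and Cldn2 in hippocampal RNA, and does not state whether it was that assay. The part of this choice of animals in the levels below was not tested. Values are log2 CPM (read counts scaled to a common library total) after the authors had removed 1 factor of unwanted variation. CPM below are the adjusted counts recovered from these values, scaled to the library total without the prior count that the log2 values hold. The transcript levels of aged and young mice were compared to ask which of these genes differed in abundance in the aged hippocampus.

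Pericytes lie on the capillary wall within the basement membrane they share with the endothelium, and smooth muscle cells wrap arterioles. Endothelial cells recruit both through PDGF-B, which acts on the receptor Pdgfrb, and Notch signals between neighbouring vessel cells keep the mural cells mature. Smooth muscle cells contract when myosin is phosphorylated and pulls on smooth muscle actin, a program of genes switched on by serum response factor (SRF) at a DNA element called the CArG box. In the brain the 2 cell types set capillary and arteriolar blood flow and help to keep the blood-brain barrier closed.

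Of the 8 genes, Rgs5 and Notch3 were higher in aged than in young hippocampi and none was lower. Rgs5, which switches off G protein signals in pericytes, was 1.23-fold higher, and Notch3, the Notch receptor of mural cells, was 1.46-fold higher. For the other 6, the contractile genes Acta2, Myl9 and Tagln, the receptor Pdgfrb, the matrix protein Vtn and the pericyte marker Higd1b, the change did not pass the test. A gene was called at an adjusted p under 0.05 (limma, Benjamini-Hochberg over 16703 genes), which 1.20% of all genes passed as higher in aged mice and 0.784% as lower. With a fold of 1.5 or more as a further condition, 0 of the 8 were called. In a fit with no trend of the variance on the level, neither Rgs5 nor Notch3 passed (adjusted p = 0.28 and 0.29, limma), nor did any gene of the table, of which 1881 had an unadjusted p under 0.05. In bulk tissue, a change in the number of mural cells and a change in RNA per cell cannot be told apart.

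The sequences before the start sites of Rgs5 and Notch3 are shown because these were the genes that were called. They are the 250 bases before the RefSeq start (build GRCm38.p6), written 5′ to 3′ along the gene's strand, with each CG dinucleotide in capitals. Rgs5 lies at chr1:169655251-169655500 on the plus strand and Notch3 at chr17:32166891-32167140 on the minus strand.
Rgs5: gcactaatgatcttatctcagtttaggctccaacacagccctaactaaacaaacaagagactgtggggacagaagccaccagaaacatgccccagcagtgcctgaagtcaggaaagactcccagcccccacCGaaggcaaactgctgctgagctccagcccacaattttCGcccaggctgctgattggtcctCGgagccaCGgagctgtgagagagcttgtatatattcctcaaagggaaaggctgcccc
Notch3: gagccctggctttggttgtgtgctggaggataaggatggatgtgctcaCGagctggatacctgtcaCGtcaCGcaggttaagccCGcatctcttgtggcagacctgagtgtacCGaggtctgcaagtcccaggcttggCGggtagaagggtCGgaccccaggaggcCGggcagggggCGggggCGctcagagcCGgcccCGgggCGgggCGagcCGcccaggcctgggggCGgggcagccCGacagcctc
The Rgs5 stretch had 4 CG dinucleotides and 53.6% G and C, close to the medians of 6 CG dinucleotides and 52.4% over 32851 promoter windows in the table. The Notch3 stretch had 17 CG dinucleotides and 68.8% G and C, and 89.0% of windows had a lower share of G and C. No methylation or factor binding was measured in these libraries.

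RefSeq windows of 300 bases (250 before to 50 after the start) were found for 5 of the 8 genes, Rgs5, Notch3, Myl9, Vtn and Acta2. Tagln, Pdgfrb and Higd1b had no entry. An exact match to the CArG box on either strand was present in 1 of the 5, against 1.63% of all windows. It lay in Myl9 with its first base at position -161 from the start, and it is shown in capitals with its flanks because Myl9 encodes a part of the contractile machinery (window chr2:156775214-156775513, plus strand).
Myl9: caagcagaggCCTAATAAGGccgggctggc
None of 22 windows of other smooth muscle contractile genes and none of 27 windows of other pericyte markers held an exact match. Matches with a base off the consensus were not sought in any window. A window without an exact match, such as that of Acta2, may therefore still hold the element. The letters TGGGAA, the core bound by the Notch factor RBPJ, were sought on both strands and were present in 2 of the 5 windows (Vtn 3 times, Acta2 once), against 25.6% of all windows, and none of the 5 held both motifs. A match is a description of the letters and not of binding.

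The table held the markers of hippocampal neurons at high levels in every library. Prox1 and C1ql2 of the dentate gyrus ranged over 83.9 to 102 and 92.8 to 117 CPM, and Wfs1 and Fibcd1 of CA1 over 113 to 157 and 194 to 216 CPM (these 4 were chosen after their values had been seen). The adjusted counts sum to 15238190 to 17548247 per library, but their totals are not the sequencing depth, which the values do not give. No gene of the marker lists below was at 0 in any library. Aged replicates 2 and 3 differed by 0.517 times the noise that counting would give if the adjusted counts were read counts, against 1.27 to 2.73 times for the other pairs within a group. The removed factor ran mainly between these 2 libraries, and they were kept as 2 samples. With their mean counted as 1 sample, Rgs5 and Notch3 stayed past the threshold (log2 fold change 0.31, adjusted p = 0.011, and 0.57, adjusted p = 0.012), and Vtn turned to -0.05 (adjusted p = 0.91, limma).

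**Figure D1:**
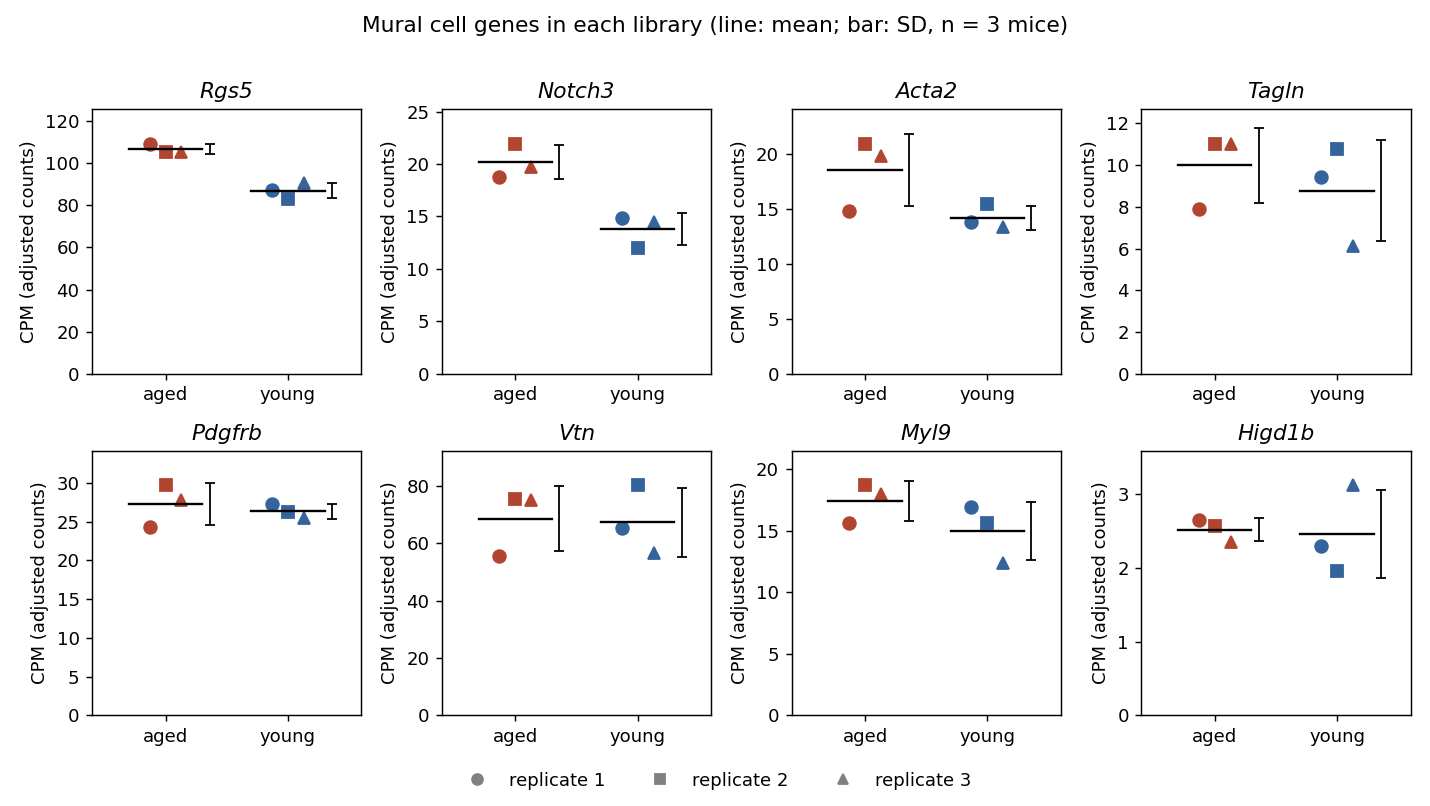
CPM of the 8 mural cell genes in each library, with aged mice left and young mice right in each panel (circle, square and triangle are replicates 1, 2 and 3, the line is the mean and the bar the SD of 3 mice). For Rgs5 all aged libraries (105.1 to 109.2 CPM) lie above all young ones (83.1 to 90.5 CPM), likewise for Notch3, and the groups overlap for the other 6. Of all genes, 14.5% have every aged library above every young one.

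Rgs5 (ENSMUSG00000026678.11, chromosome 1) encodes a GTPase-activating protein that shortens signals from Gq and Gi proteins, such as those of receptors that constrict vessels. Its level was 109.2, 105.1 and 105.1 CPM in the aged mice and 87.0, 83.1 and 90.5 CPM in the young mice. All 3 aged libraries lay above all 3 young ones, a separation that 14.5% of all genes showed, and the gap between the groups was wider than the spread within either. The means were 106.5 ± 2.37 CPM in aged mice and 86.9 ± 3.68 CPM in young mice (SD, n = 3 each), a log2 fold change of 0.29 (SE 0.053, 95% interval 0.18 to 0.41) with an adjusted p of 0.0092 (limma). It was the gene with the 96th smallest p of 16703. With a term for the removed factor and 1 library left out, the adjusted p was 0.061 without aged replicate 1, 0.053 without aged replicate 3 and 0.071 without young replicate 1, at log2 fold changes of 0.27, 0.39 and 0.29. With aged replicate 3 left out, the removed factor correlates with age at -0.754 over the remaining 5 libraries (-0.021 over all 6), so that fits with the term are hard to read for that subset, here and for the genes below. Without that term the adjusted p of Rgs5 stayed at 0.016 to 0.049 whichever library was left out.

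Notch3 (ENSMUSG00000038146.9, chromosome 17) encodes the Notch receptor of vascular smooth muscle cells and pericytes. In humans, mutations of NOTCH3 cause CADASIL, a disease of small brain arteries in which smooth muscle cells degenerate. Notch3 was at 18.8, 21.9 and 19.7 CPM in the aged mice, against 14.9, 12.02 and 14.5 CPM in the young mice. The groups did not overlap, with the lowest aged library (replicate 1) above the highest young one (replicate 1), as for 14.5% of all genes. The means were 20.2 ± 1.62 CPM in aged and 13.8 ± 1.56 CPM in young mice (SD, n = 3 each), and the log2 fold change was 0.55 (SE 0.111, 95% interval 0.31 to 0.78, adjusted p = 0.020, limma). It had the largest fold change of the 8, with an interval of the fold of 1.24 to 1.72. The call was lost without aged replicate 2 (0.44, adjusted p = 0.17), aged replicate 3 (0.69, adjusted p = 0.13) or young replicate 1 (0.60, adjusted p = 0.061), and, in the fit with no term for the removed factor, without aged replicate 2, young replicate 1 or young replicate 3 (adjusted p = 0.054, 0.057 and 0.051).

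Pdgfrb (ENSMUSG00000024620.12) encodes the receptor through which endothelial PDGF-B recruits and maintains pericytes. It was at 24.3, 29.7 and 27.8 CPM in the aged mice and at 27.2, 26.3 and 25.4 CPM in the young mice. The young range lay wholly within the aged one. The log2 fold change was 0.05 (SE 0.089, adjusted p = 0.86, limma), and its 95% interval of -0.14 to 0.24 leaves room for a fold between 0.906 and 1.18.

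Vtn (ENSMUSG00000017344.5, chromosome 11) encodes vitronectin, an adhesive glycoprotein of plasma and matrix that binds integrins and that pericytes make in the mouse brain. Its level was 55.6, 75.3 and 74.9 CPM in the aged mice, against 65.3, 80.3 and 56.5 CPM in the young mice. The lowest libraries of their groups were aged replicate 1 and young replicate 3, and young replicate 2 was the highest of all. The means (68.6 ± 11.3 CPM aged, 67.3 ± 12.04 CPM young, SD, n = 3 each) were closer than either SD. The log2 fold change was 0.03 (SE 0.119, 95% interval -0.22 to 0.28, adjusted p = 0.94, limma). Its sign turned without aged replicate 2 (-0.09) or young replicate 3 (-0.09), and without aged replicate 3 it was -0.48 with the term for the removed factor and -0.04 (adjusted p = 0.93) with no term.

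Higd1b (ENSMUSG00000020928.15, chromosome 11) marks brain pericytes in the mouse and belongs to the HIG1 family, which takes its name from genes induced by hypoxia. It had the fewest reads of the 8, with 30 to 48 adjusted counts per library. The levels were 2.64, 2.56 and 2.35 CPM in the aged mice and 2.30, 1.96 and 3.12 CPM in the young mice, and the young range held the whole aged one. The log2 fold change was 0.06 (SE 0.240, adjusted p = 0.94, limma). The 95% interval of -0.45 to 0.57 is the widest of the 8, so that a change of the size of that of Notch3 was not detectable for this gene.

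The 3 remaining genes encode the contractile apparatus. Acta2 (ENSMUSG00000035783.10, chromosome 19), smooth muscle actin, was at 14.8, 20.9 and 19.8 CPM in aged mice and at 13.8, 15.4 and 13.3 CPM in young mice. Aged replicate 1 lay within the young range and the other aged libraries above it. The log2 fold change was 0.37 (SE 0.128, 95% interval 0.10 to 0.64), with an unadjusted p of 0.011 and an adjusted p of 0.18 (limma). Without aged replicate 1 it was 0.53 (adjusted p = 0.050, just past the threshold, and 0.038 with no term for the removed factor), so that its call depends on that library. Without aged replicate 3 it was -0.01 (adjusted p = 0.99) with that term and 0.31 (adjusted p = 0.37) with no term.

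Myl9 (ENSMUSG00000067818.7, chromosome 2), the regulatory light chain of smooth muscle myosin, was at 15.6, 18.7 and 18.0 CPM in aged mice, against 16.9, 15.6 and 12.3 CPM in young mice. Its log2 fold change was 0.23 (SE 0.124, 95% interval -0.04 to 0.49, adjusted p = 0.42, limma), and the groups overlapped. Tagln (ENSMUSG00000032085.6, chromosome 9), the actin-binding protein transgelin, was at 7.92, 11.0 and 11.0 CPM in aged mice and at 9.45, 10.8 and 6.11 CPM in young mice. As for Vtn, aged replicate 1 and young replicate 3 were the lowest libraries of their groups. The log2 fold change of Tagln was 0.21 (SE 0.193, 95% interval -0.20 to 0.62, adjusted p = 0.68, limma), and it was -0.03 without young replicate 3. Without aged replicate 3 it was -0.36 with the term for the removed factor and 0.13 with no term.

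Tagln is the least certain of the 8 in its counting. In the GENCODE M21 annotation (build GRCm38), 62.4% of its exon bases lie under exons of Gm48529 on the opposite strand and 5.43% under those of Pcsk7. The library kit marks strand, but whether the authors counted by strand is not given in the sources used here. Gm48529 itself was at 2.74 ± 0.352 CPM in aged mice and 2.42 ± 0.411 CPM in young mice (SD, n = 3 each), a log2 fold change of 0.18 (adjusted p = 0.78, limma). Notch3 shares 6.03% of its exon bases with Gm17276 on the opposite strand, whose log2 fold change was 0.08 (adjusted p = 0.93, limma). The other 6 share no exon base with another gene.

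**Figure D2:**
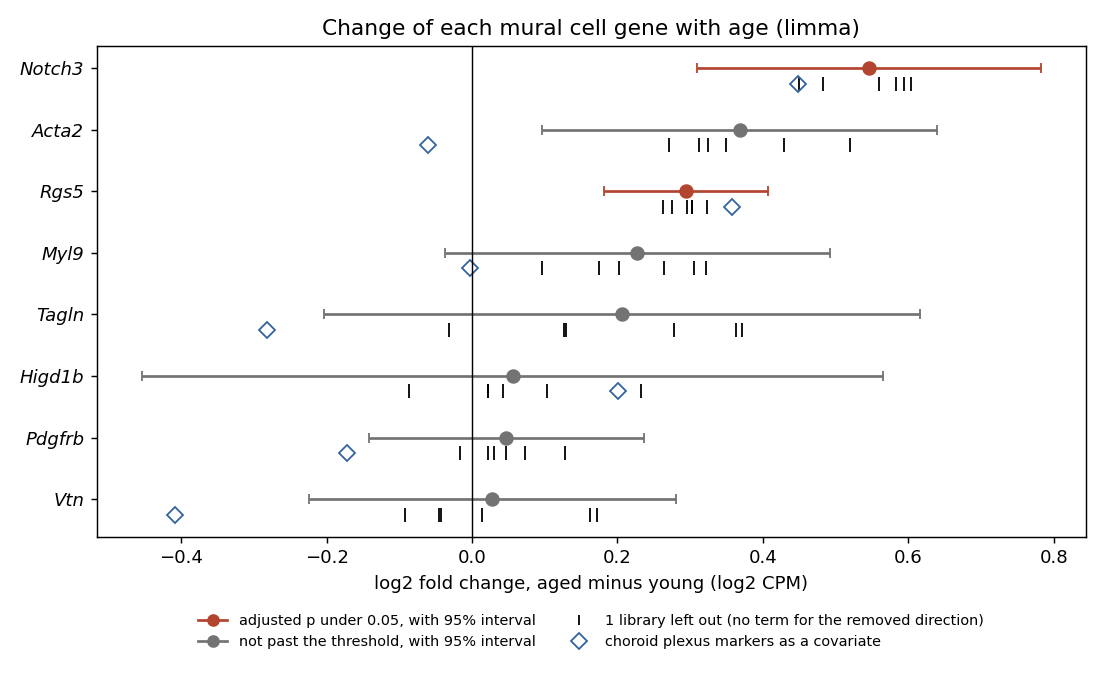
Log2 fold change of each mural cell gene, aged minus young, with its 95% interval (limma), in order of size. Ticks give the value with each of the 6 libraries left out (no term for the removed factor) and diamonds the value when choroid plexus markers entered the fit. Rgs5 and Notch3, in red, are the 2 genes past an adjusted p of 0.05, and at the diamonds Acta2, Myl9, Tagln, Pdgfrb and Vtn lie at or below 0.

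All 8 log2 fold changes were above 0, against 51.4% of all genes, and their median was 0.22, against 0.005 over all 16703 genes. The genes share cells and libraries and are not independent. An unadjusted p under 0.05 was reached by 3 of the 8 (Rgs5, Notch3 and Acta2), against 2485 of all 16703 genes (limma). The mean log2 CPM of the 8 genes was 4.22, 4.48 and 4.42 in the aged mice and 4.20, 4.18 and 4.07 in the young mice. The aged libraries lay above the young ones, with aged replicate 1 close to the highest young library.

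On a scale of CPM per kilobase of exon (GENCODE M21), which allows levels to be compared between genes, Vtn was the highest at 33.8 ± 5.55 in aged and 33.2 ± 5.93 in young mice (SD, n = 3 each). Rgs5 followed at 23.4 ± 0.521 in aged and 19.1 ± 0.809 in young mice, then Myl9 (15.0 ± 1.40 aged, 12.9 ± 2.03 young) and Acta2 (8.42 ± 1.49 aged, 6.45 ± 0.501 young). These 4 kept their order with no overlap of their ranges over the 6 libraries, so that the secreted protein and the G protein regulator stood above the contractile genes. Tagln (3.07 to 5.55 over the libraries) overlapped Pdgfrb (4.43 to 5.42) and Higd1b (2.31 to 3.68), and Higd1b overlapped Notch3 (1.49 to 2.71). Notch3, the receptor with the largest fold change, was thus among the least abundant of the 8 per length. The build of the annotation differs from that of the counts, and lengths of the isoforms in use may differ from those taken here.

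The 8 genes were also compared by the likeness of their profiles over the 6 libraries. Likeness was measured as the root mean square difference of 2 genes' log2 CPM, each centred on its mean over the libraries, and is a description with no test. The closest pairs were Pdgfrb with Myl9 (0.141) and Tagln with Vtn (0.152), and Rgs5 stood 0.165 from Notch3. For comparison, the root mean square spread of Pdgfrb around its own mean was 0.093 and that of Rgs5 0.152. The farthest pair was Tagln with Higd1b (0.478), since Higd1b was highest in young replicate 3, where Tagln was lowest. Tagln and Vtn, a close pair, are not both contractile or both secreted. The distance holds counting noise and each gene's own spread, and whether the 8 genes varied together was not tested.

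Among all genes averaging 1 CPM or more, Myl6b and Msn were near to Rgs5 (0.0112 and 0.0155), and those nearest to Notch3 were Rpl14-ps1, Gm10401 and Krt9 (0.0208 to 0.0419). Acta2 was nearest to Shmt1, A330048O09Rik and Ccm2l (0.0418 to 0.0639), Tagln to Celrr, Igfbp6 and Dnaaf4 (0.0505 to 0.0620), and Vtn to Pcdhga1, Gm20559 and Col16a1 (0.0205 to 0.0329). For Pdgfrb they were Foxred2, Coq10a and Tmem205 (0.0159 to 0.0226), for Myl9 Drd1, 1700008O03Rik and Stk33 (0.0343 to 0.0366), and for Higd1b Cyp2s1, Gdpgp1 and Cep76 (0.0361 to 0.0370). In each case a gene outside the 8 was closer than any of the 8. The search ran over 15446 genes and only 6 libraries, so a closer outside gene was likely for any gene. It does not show whether the 8 belong together.

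Other markers of pericytes were examined to see whether the rise of Rgs5 extended to them. Of 20 listed, 19 were measured (Steap4 was not in the table), and none passed the test in either direction. Their median log2 fold change was 0.16, with 15 above 0 and 3 at an unadjusted p under 0.05. Ifitm1, an interferon-induced membrane protein, averaged 1.57 ± 0.391 CPM in aged and 2.59 ± 0.728 CPM in young mice (SD, n = 3 each), a log2 fold change of -0.67 (adjusted p = 0.29, limma). Abcc9, the sulfonylurea receptor subunit of the potassium channel of mural cells, had 9.05, 9.63 and 9.15 CPM in the aged mice and 6.69, 6.60 and 8.96 CPM in the young mice. All its aged libraries lay above all young ones, as for 14.5% of all genes, and its log2 fold change of 0.33 did not pass the test (adjusted p = 0.31, limma).

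Of 22 other genes listed for contractile smooth muscle, not all of them contractile proteins, 20 were measured (Actg2 and Map3k7cl were not). Of these, 3 were higher in aged mice and none lower, with a median log2 fold change of 0.13 and 6 at an unadjusted p under 0.05. The other 17 did not pass, among them Myh11 (0.13, adjusted p = 0.64), Des (0.37, adjusted p = 0.48) and Cnn1 (-0.08, adjusted p = 0.95, limma). The 3 that passed are also made by other cells, as given for each. Csrp1, a LIM protein of smooth muscle that astrocytes also make, was at 333.9, 321.6 and 327.3 CPM in the aged mice and at 266.7, 257.8 and 250.9 CPM in the young mice (log2 fold change 0.34, SE 0.042, adjusted p = 0.00041, limma). Ppp1r14a, an inhibitor of myosin phosphatase that is also made by oligodendrocytes, averaged 19.7 ± 0.664 CPM in aged and 13.8 ± 1.27 CPM in young mice (SD, n = 3 each), a log2 fold change of 0.51 (adjusted p = 0.019, limma). Sncg, gamma-synuclein, which some neurons also make, averaged 5.85 ± 0.241 CPM in aged and 3.01 ± 0.546 CPM in young mice (SD, n = 3 each), a log2 fold change of 0.95 (adjusted p = 0.019, limma). For all 3 the aged libraries lay above the young ones, as for 14.5% of all genes.

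Of SRF and other factors that act on contractile genes, in either direction, 6 of 8 were measured (Gata6 and Myocd, the gene of myocardin, were not). None was higher and 1 was lower in aged mice. That was Elk1, a partner of SRF that responds to growth factor signals, with 56.8 ± 1.23 CPM in aged and 71.4 ± 2.15 CPM in young mice (SD, n = 3 each), a log2 fold change of -0.33 (SE 0.057, adjusted p = 0.0075, limma). Elk1 is made by neurons as well, and its effect on contractile genes was not tested. The median of the list was -0.01.

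The ligands and partners of the receptors were then compared. Of the 6 other PDGF ligands and receptors, all were measured and none passed the test, with a median log2 fold change of 0.01. Pdgfb, the ligand of Pdgfrb, was at 0.13 (adjusted p = 0.58, limma) and Pdgfd at -0.21 (adjusted p = 0.61, limma). Neither the receptor nor its ligand was thus found to change.

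Of 25 other genes of the Notch pathway, all were measured and none passed the test, with a median log2 fold change of 0.04. Those with the smallest p were the ligand Jag2 (0.22, adjusted p = 0.13) and the transcription factor Rbpj (0.17, adjusted p = 0.45, limma). Given for their role, the other receptors Notch1, Notch2 and Notch4 were at 0.05, -0.01 and 0.05, and the target genes Hes1, Hey1, Hey2 and Heyl at 0.08, -0.04, -0.20 and 0.15 (adjusted p between 0.67 and 0.98, limma). The call of Notch3 therefore stood beside no call of a ligand, another receptor or a target, and whether its change differed from theirs was not tested. Most of these genes are expressed by neurons, astrocytes or endothelium as well.

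Around Rgs5, 20 of 22 genes for G proteins, regulators and receptors of vessel tone were measured (Agtr1a and Avpr1a were not), and none passed the test (median 0.08). Gnai2, a Gi subunit, came closest at 0.17 (adjusted p = 0.056), and the sphingosine phosphate receptor S1pr1 was at 0.16 (adjusted p = 0.19, limma). Around Vtn, 8 of 9 receptors and partners were measured (Plaur was not) and 1 was higher (median 0.14). Itgb5, an integrin subunit that binds vitronectin and that microglia also make, averaged 57.3 ± 2.69 CPM in aged and 44.9 ± 0.593 CPM in young mice (SD, n = 3 each), a log2 fold change of 0.35 (adjusted p = 0.0089, limma). Of 15 TGF-β and angiopoietin genes that act in mural recruitment none passed (median 0.10), with Smad3 at 0.24 (adjusted p = 0.051) and Tgfbr2 at 0.25 (adjusted p = 0.18, limma).

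**Figure D3:**
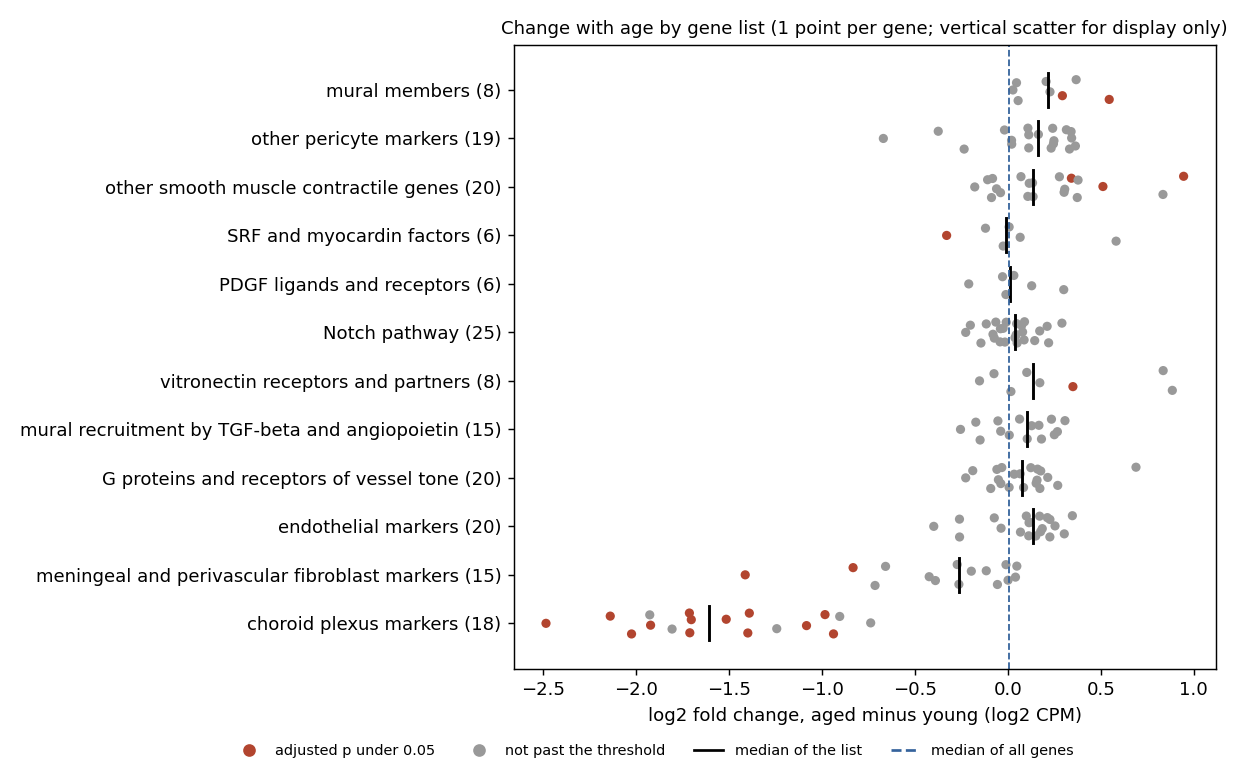
Log2 fold change (aged minus young) of every measured gene of each list, with the number of genes in brackets, red where the adjusted p is under 0.05. Black bars are list medians and the dashed line is the median of all genes (0.005). Lists of mural biology centre between -0.01 and 0.22, and the choroid plexus list centres at -1.61.

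Other cell types of the dissected tissue differed between the groups, and their levels stand here beside the mural values. Of 20 endothelial markers none passed the test, with a median log2 fold change of 0.13 and 8 at an unadjusted p under 0.05, and their summed level was 550 to 581 CPM in aged and 494 to 572 CPM in young libraries. The mean log2 CPM of the 8 mural genes less that of the endothelial markers was -0.19, -0.0023 and -0.0071 in the aged mice and -0.17, -0.09 and -0.34 in the young mice. Relative to endothelium, aged replicate 1 lay among the young libraries. With the endothelial mean as a covariate, Rgs5 was at 0.25 (adjusted p = 0.078) and Notch3 at 0.35 (adjusted p = 0.23, limma), so that neither call held. In the main fit they were at 0.29 and 0.55. The covariate left 2 residual degrees of freedom, against 3 in the main fit. Whether the loss of the calls was tied to endothelium was not tested.

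Choroid plexus epithelium, which lies beside the hippocampus and can be dissected with it, had 13 of 18 markers lower and none higher, with a median of -1.61. Their summed level was 693 to 3332 CPM in aged and 3521 to 4064 CPM in young libraries, and the highest aged one was replicate 1. Among the 13 were Prlr (-0.98, adjusted p = 0.00087), Kcnj13 (-2.02, adjusted p = 0.0048), Kl (-0.94, adjusted p = 0.0053) and F5 (-1.71, adjusted p = 0.0060, limma). Cldn2, another of the 13, was assayed by qRT-PCR in the paper, and the part of the choice of animals in these values was not tested. Rgs5 was highest in aged replicate 1, the aged library with choroid plexus levels nearest to those of young mice. Higd1b was also highest of the aged group there (2.64 against 2.56 and 2.35 CPM), whereas Notch3, Acta2, Tagln, Vtn, Pdgfrb and Myl9 were each lowest of that group. When the mean level of 5 choroid plexus markers entered the fit, Rgs5 was at 0.36 (adjusted p = 0.14) and Notch3 at 0.45 (adjusted p = 0.50), and Acta2, Myl9, Tagln, Pdgfrb and Vtn were at -0.06, -0.0033, -0.28, -0.17 and -0.41 (adjusted p of 0.35 to 1, limma). In that mean all aged libraries lay below all young ones, and the fit left 34 genes higher and 31 lower over the whole table.

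Markers of fibroblasts of the meninges and perivascular space, which can be cut with the choroid plexus and also surround vessels, had 2 of 15 lower and none higher (median -0.26). Their summed level was 149 to 248 CPM in aged and 200 to 308 CPM in young libraries. The collagen genes Col3a1 (-1.41, adjusted p = 0.025) and Col1a2 (-0.83, adjusted p = 0.027, limma) were the 2 that passed. The mean log2 CPM of the list was 2.76, 3.60 and 3.53 in the aged mice, with the young mice at 3.53 and 4.08 in replicates 1 and 2 and lower in replicate 3. Its lowest library was aged replicate 1 and the lowest of the young was replicate 3, the same libraries in which Tagln and Vtn were lowest of their groups. Young replicate 2 was the highest of the young for the list and for both genes. The part of fibroblasts in those values was not tested.

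Of 10 microglia markers 6 were higher and none lower (median 0.41, summed level 532 to 551 CPM in aged and 411 to 428 CPM in young libraries), among them C1qa (0.64, adjusted p = 7.8e-05), C1qb (0.61, adjusted p = 0.00035), C1qc (0.52, adjusted p = 0.00085) and Cx3cr1 (0.44, adjusted p = 0.0014, limma). Of 10 astrocyte markers, Gfap (0.49, adjusted p = 3.3e-05) and S100b (0.61, adjusted p = 6.9e-05, limma) were higher, and of 10 oligodendrocyte markers Mobp was higher (0.27, adjusted p = 0.012). Of 10 neuron markers Map2 was lower (-0.17, adjusted p = 0.027, limma). Of the 6 blood markers measured none passed, with a summed level of 46.7 to 56.4 CPM in aged and 38.7 to 45.7 CPM in young libraries. The part of microglia and of the other cell types of this paragraph in the values of Rgs5 and Notch3 was not tested.

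**Figure D4:**
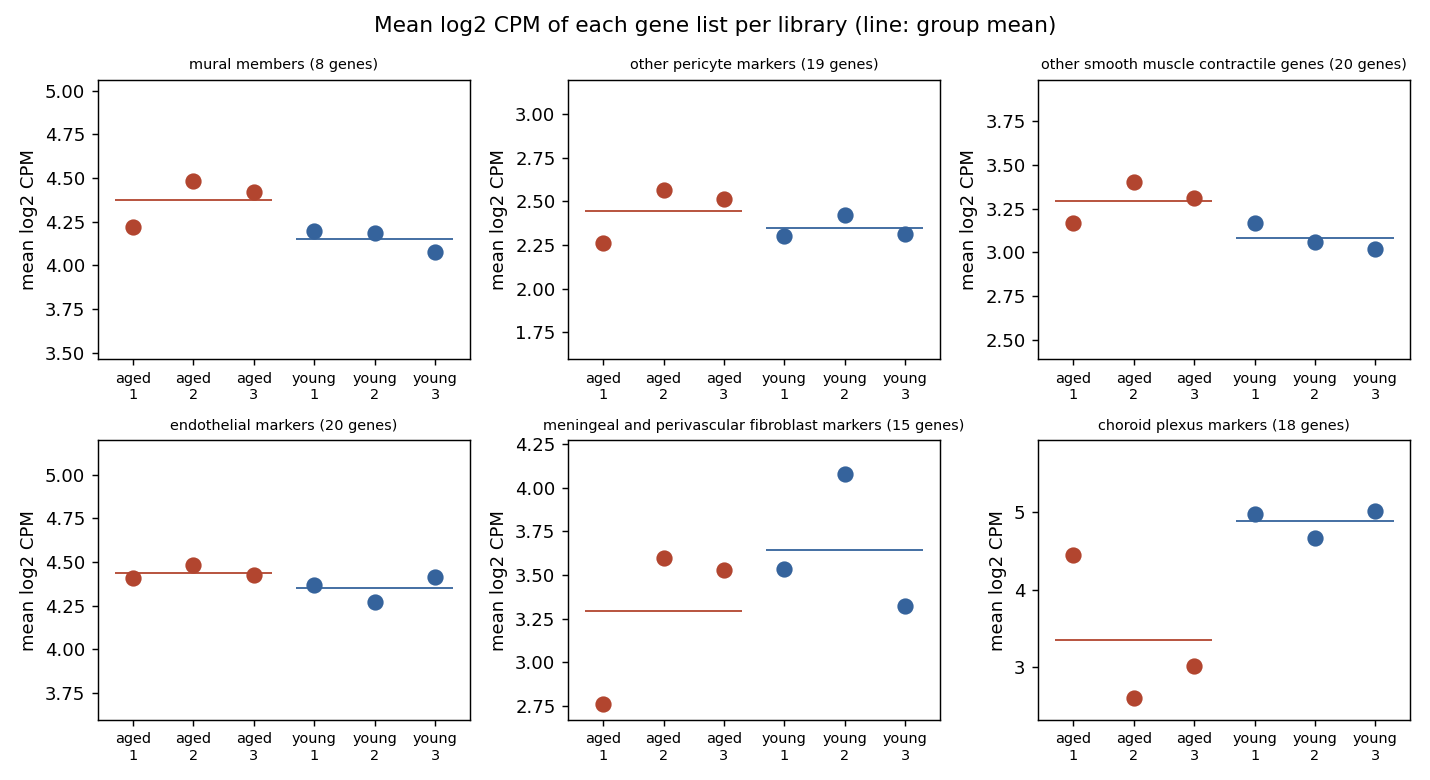
Mean log2 CPM of 6 gene lists in each library, aged mice left in red and young mice right in blue, with a line at each group mean. The 8 mural genes run from 4.22 to 4.48 in aged and from 4.07 to 4.20 in young libraries, while choroid plexus markers are lower in aged replicates 2 and 3 (2.61 and 3.02) than in aged replicate 1 (4.45) or the young libraries (4.67 to 5.02).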

How the data were processed

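Groups were taken from the sample labels (3 aged and 3 young mice, 1 RNA-Seq library each). The authors deposited log2 CPM values per library for 16703 genes, and their processing notes name Trim Galore 0.6.6, STAR 2.7.8a, R 4.05, edgeR 3.32.1 and the build mm39. Sources used here do not give how genes of low expression were left out. The extended methods state uniquely mapped reads, a likelihood ratio test and removal of unwanted variation. The 6 columns of the authors' own comparison (average expression, fold change, test statistic, p and FDR) were not used.

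The log2 values were turned back into whole adjusted counts (largest deviation 6e-09, prior count 2). Over 1791 genes with a mean above 2000, log counts lacked 1 direction of variation (spread 0.986 times that of rounding alone), which marks the removed factor. Since values are adjusted log2 CPM, no count test was run. The main test was limma 3.58.1 (R 4.3.3, trended variance) on these deposited log2 values. The model held age and the removed direction (residual degrees of freedom 3, prior 12.3), with Benjamini-Hochberg adjustment over all 16703 genes. The factor came from the same libraries, so p-values are somewhat too small, and any difference that the removal took out cannot be recovered. Fold changes hold the authors' prior count and understate changes of low genes.

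The members and lists were chosen with earlier results of these data known. Named genes were all members, and from each list of mural biology those past the test (at most 4) or else the 2 of smallest p, from marker lists of other cells those past the test (at most 4), and the 3 genes nearest each member (1 of these is not reported here). Alternatives were other pseudocounts, filters, centrings, variance models, covariates, a replicate block, aged replicates 2 and 3 as 1 sample, and each library left out. The steps were tested on simulated data. Replicate numbers were not taken as pairs of mice in the main test. Deviations of same-numbered mice correlated at 0.109, -0.209 and -0.415 over 15446 genes. Those of differently numbered mice ranged from -0.471 to 0.836. The removed factor links the libraries, so these values cannot show whether mice were paired. Promoters were from the RefSeq table, motifs were exact matches on either strand, and exon lengths were from GENCODE M21. MeRIP-Seq libraries were not analysed here.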

Additional observations from a re-analysis of the deposited data

How the results depend on the processing

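Over 25 alternatives (24 planned, 1 added after seeing the data), Rgs5 stayed past the threshold in 19 (log2 fold change 0.25 to 0.39, adjusted p = 0.0047 to 0.28), Notch3 in 16 (0.35 to 0.69, 0.012 to 0.50) and both in 15, and all 8 genes kept their direction in 13 (limma). Without a variance trend, Rgs5 (0.29, adjusted p = 0.28) and Notch3 (0.55, adjusted p = 0.29) were not past the threshold, and 0 genes of the table were, with 1881 at an unadjusted p under 0.05. With the choroid plexus covariate Rgs5 was at 0.36, Notch3 at 0.45, Acta2 at -0.061, Tagln at -0.28, Pdgfrb at -0.17, Vtn at -0.41 and Myl9 at -0.0033. None of the 8 genes and 34 higher and 31 lower genes of the table were then called, with 1 higher and 1 lower among the other pericyte and smooth muscle genes. With the endothelial covariate Rgs5 was at 0.25, Notch3 at 0.35, Pdgfrb at -0.0011, Higd1b at -0.23 and Pdgfb at -0.10, and 0 of the 8 were called. The cause was not tested.

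With no term for the removed direction, 319 genes were higher and 204 lower. The cause was not tested. With the replicate block, 226 were higher and 163 lower with that term and 286 and 224 without it. The block changed no call of the 8 (Rgs5 0.29, adjusted p = 0.0070, Notch3 0.54, adjusted p = 0.020 with the term, limma). The block left 1 residual degree of freedom with the term and 2 without it, so this check is weak. With aged replicates 2 and 3 as 1 sample Vtn was at -0.053 (-0.044 without the term, where 86 genes were lower).

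With 1 library left out, with and without the term, the log2 fold changes ranged over 0.26 to 0.39 (Rgs5), 0.44 to 0.69 (Notch3), -0.0083 to 0.53 (Acta2), -0.36 to 0.39 (Tagln), -0.069 to 0.13 (Pdgfrb), -0.48 to 0.18 (Vtn), 0.06 to 0.32 (Myl9) and -0.11 to 0.39 (Higd1b). Between 0 and 3 of the 8 genes were then higher and none lower, 1 to 4 of the other pericyte and smooth muscle genes higher and 0 to 1 lower, and 59 to 263 genes of the table higher and 22 to 159 lower. Depth is unknown, so no counting interval was computed, and Higd1b, with the fewest counts, had the widest interval.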
